A study of Mus musculus with 9 samples.

Results

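Interferon response genes are genes that cells switch on when they sense foreign nucleic acid or receive an interferon signal, and 37 of them were followed here in sorted cells of the mouse embryonic cortex. They were taken from a named list of interferon-stimulated genes and sensors, with no measured value in the rule, because hairpin RNA or plasmid DNA can set off this response. The list was nevertheless chosen with earlier results of these data known, which limits how its shares compare with those of all genes. All 37 were matched by symbol among the 78275 gene IDs of the count table, and all 37 passed the filter on low counts that left 27773 tested genes. For description they were split into 7 groups by role: the transcription factors Irf1, Irf7, Irf9 and Stat2; Isg15 and its protease Usp18; 8 sensors of nucleic acid and their partners; 11 antiviral effectors; 5 interferon-inducible GTPases; 3 genes of antigen processing; and 4 other interferon-induced genes.

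The libraries came from wild-type (WT) mouse embryos electroporated in utero at E14.5 and harvested 48 h later, at E16.5. Each plasmid carried mCherry and a hairpin embedded in a microRNA, directed against Gpc4 (sh-Gpc4) or Gpc2 (sh-Gpc2) or scrambled (sh-NT), and mCherry-positive cells were sorted by flow cytometry. There were 3 libraries in each of the 3 groups, numbered as in the columns of the count table: 1, 3 and 4 for sh-Gpc4, 1, 2 and 4 for sh-Gpc2, and 1, 2 and 4 for sh-NT. The tissue is given as forebrain and the cell type as progenitors and neurons of the cortex. All 3 groups received a plasmid and a hairpin, so the level of these genes in cells that received neither was not analysed here. The comparisons below therefore address a difference between hairpins, not the response to electroporation itself. Nothing in the labels says how many embryos or litters went into a library, so the spread behind each p-value may be partly technical.

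The targets of the hairpins, Gpc4 and Gpc2, code for glypicans, cell-surface proteoglycans that carry heparan sulfate chains. Gpc4 had 137, 99.9 and 129 CPM (TMM-scaled CPM, the read count over the scaled library size) in sh-Gpc4 libraries 1, 3 and 4, against 165, 188 and 175 CPM in sh-NT libraries 1, 2 and 4. All sh-Gpc4 values lay below all sh-NT values, with a log2 fold change of -0.53 ± 0.21 (SE, edgeR quasi-likelihood test, adjusted p = 0.488). Gpc2 had 167, 145 and 79.6 CPM in sh-Gpc2 libraries 1, 2 and 4, against 200, 207 and 161 CPM in sh-NT libraries, and the groups overlapped. Its log2 fold change in sh-Gpc2 was -0.54 ± 0.33 (SE, edgeR, adjusted p = 0.968), and -0.28 without sh-Gpc2 library 4, which stands apart from most libraries. In sh-Gpc4 libraries 1, 3 and 4 Gpc2 had 168, 70.3 and 96.6 CPM. Neither target passed the threshold after adjustment over all tested genes. The unadjusted edgeR p was 0.0326 for Gpc4 in sh-Gpc4 and 0.14 for Gpc2 in sh-Gpc2, each against sh-NT.

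Total counts ran from 48045603 to 66538437 reads per library. A principal component analysis of 11968 abundant genes put 71.6% of the variance on the first component, with sh-Gpc4 library 3 and sh-Gpc2 library 4 at one end of it. The second component, with 12.04%, set sh-Gpc2 library 2 apart. No gene of the 27773 tested passed an adjusted p of 0.05 by edgeR in any of the 3 contrasts. The chi-square per degree of freedom between libraries of a group was 8.56 to 93.4, where counting error alone gives about 1, so none was taken for a duplicate. Markers of the labelled cells were present throughout: the summed level of 10 radial glia markers ran from 1613 to 2664 CPM, that of 10 intermediate progenitor markers from 1531 to 1761 CPM and that of 10 excitatory neuron markers from 3824 to 4805 CPM.

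Interferons are secreted proteins. Type I interferons bind a receptor made of Ifnar1 and Ifnar2, whose kinases phosphorylate STAT proteins, STAT2 among them. STAT2 and IRF9 are part of the complex ISGF3, which binds the interferon-stimulated response element (ISRE) in front of genes such as Ifit1 and Isg15. Type II interferon uses another receptor, acts through the gamma-activated sequence (GAS) and induces Irf1, the inducible GTPases and antigen processing genes. Some effectors, among them the IFIT genes and Rsad2, can also be switched on directly by IRF3 when a cell senses foreign nucleic acid, without secreted interferon. In the brain, microglia are known to respond strongly to interferon.

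The promoters of these genes were searched for both kinds of element. RefSeq promoters of build GRCm38.p6, which run from 250 bases before to 50 after the start of a gene, were found for 29 of the 37 genes. The ISRE was searched as GAAA, any 2 bases and GAAA again, on both strands, and the GAS as TTCNNNGAA, which reads the same on both strands. An ISRE stood in the promoters of 15 of these 29 genes (51.7%), against 1079 of 27025 genes in the table (3.99%) and 1131 of all 32851 promoters (3.44%). A GAS stood in those of 9 of the 29 (31.0%), against 2582 of all genes (9.55%) and 2726 of all promoters (8.30%), and the ISRE and GAS matches overlapped in Bst2. By role, 5 of 5 GTPases, 4 of 7 effectors, 4 of 6 sensors and 0 of 3 antigen processing genes held an ISRE. A GAS stood in 2 of 5 GTPases, 2 of 7 effectors, 2 of 6 sensors and 1 of 3 antigen processing genes. The effector Ifit2 had a GAS and no ISRE, while the GTPases Gbp2, Gbp3 and Irgm1 had ISRE matches and no GAS. The 6 promoters printed below therefore do not stand for their roles. A match is a run of letters and not a shown binding site. The 250 bases before the start are printed for 3 effectors and 3 genes that followed another order of libraries below, 5′ to 3′ on the strand of the gene, with ISRE and GAS matches in capitals. Ifit1 (chr19:34640639-34640888, plus strand) and Ifit3 (chr19:34583279-34583528, plus strand) each hold a pair of ISRE matches on the reverse strand, and Rsad2 (chr12:26456453-26456702, minus strand) holds a single one.
Ifit1: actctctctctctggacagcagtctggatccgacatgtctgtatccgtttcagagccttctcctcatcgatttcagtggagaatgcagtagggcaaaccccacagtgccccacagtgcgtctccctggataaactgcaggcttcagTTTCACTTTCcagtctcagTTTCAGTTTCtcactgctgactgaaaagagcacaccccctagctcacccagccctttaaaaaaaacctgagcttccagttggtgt
Ifit3: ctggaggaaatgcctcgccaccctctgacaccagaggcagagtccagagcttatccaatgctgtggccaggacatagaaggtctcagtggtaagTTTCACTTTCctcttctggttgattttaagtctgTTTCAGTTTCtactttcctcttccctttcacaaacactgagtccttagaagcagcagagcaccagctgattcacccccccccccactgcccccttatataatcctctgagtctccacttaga
Rsad2: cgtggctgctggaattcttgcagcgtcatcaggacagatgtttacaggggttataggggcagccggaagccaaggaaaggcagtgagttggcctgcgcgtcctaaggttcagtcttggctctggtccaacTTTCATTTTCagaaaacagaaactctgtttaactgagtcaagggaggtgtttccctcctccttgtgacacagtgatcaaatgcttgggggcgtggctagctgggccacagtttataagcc
Igtp (chr11:58199306-58199555, plus strand) and Tgtp2 (chr11:49064213-49064462, minus strand) hold a GAS with an ISRE just after it, and Irf1 (chr11:53769764-53770013, plus strand) holds a GAS alone.
Igtp: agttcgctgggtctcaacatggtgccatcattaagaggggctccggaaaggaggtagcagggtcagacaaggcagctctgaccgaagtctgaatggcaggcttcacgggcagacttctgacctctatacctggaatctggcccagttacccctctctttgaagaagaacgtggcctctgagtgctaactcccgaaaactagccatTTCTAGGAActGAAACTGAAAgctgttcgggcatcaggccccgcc
Tgtp2: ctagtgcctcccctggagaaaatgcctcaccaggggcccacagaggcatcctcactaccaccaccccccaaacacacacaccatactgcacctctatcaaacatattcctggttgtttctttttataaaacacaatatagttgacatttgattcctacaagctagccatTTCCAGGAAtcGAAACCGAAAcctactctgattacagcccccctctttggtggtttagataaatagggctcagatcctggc
Irf1: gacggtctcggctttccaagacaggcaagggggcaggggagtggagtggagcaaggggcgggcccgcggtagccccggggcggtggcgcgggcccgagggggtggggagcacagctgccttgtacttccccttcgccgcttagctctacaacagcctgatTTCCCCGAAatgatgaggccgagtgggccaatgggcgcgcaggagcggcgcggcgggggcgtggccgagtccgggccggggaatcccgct

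All 37 genes were detected in every library, the least with 29 reads. Mean levels over the 9 libraries ran from 2.30 CPM to 60.4 CPM. Per kilobase of exon, the highest was Bst2, which tethers budding virus to the cell surface, at 42.1 CPM per kilobase. Isg15, a ubiquitin-like protein that is joined to other proteins, followed at 25.4. Usp18, which removes ISG15 and dampens the interferon receptor, had 17.8, Igtp 17.7, Rtp4 17.3 and Ifit2 15.4 CPM per kilobase. The 3 lowest were Mx1 (0.764), Parp14 (0.694) and Mx2 (0.636). Among the 6 highest, the ranges of the 9 libraries overlapped between neighbours.

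**Figure D1:**
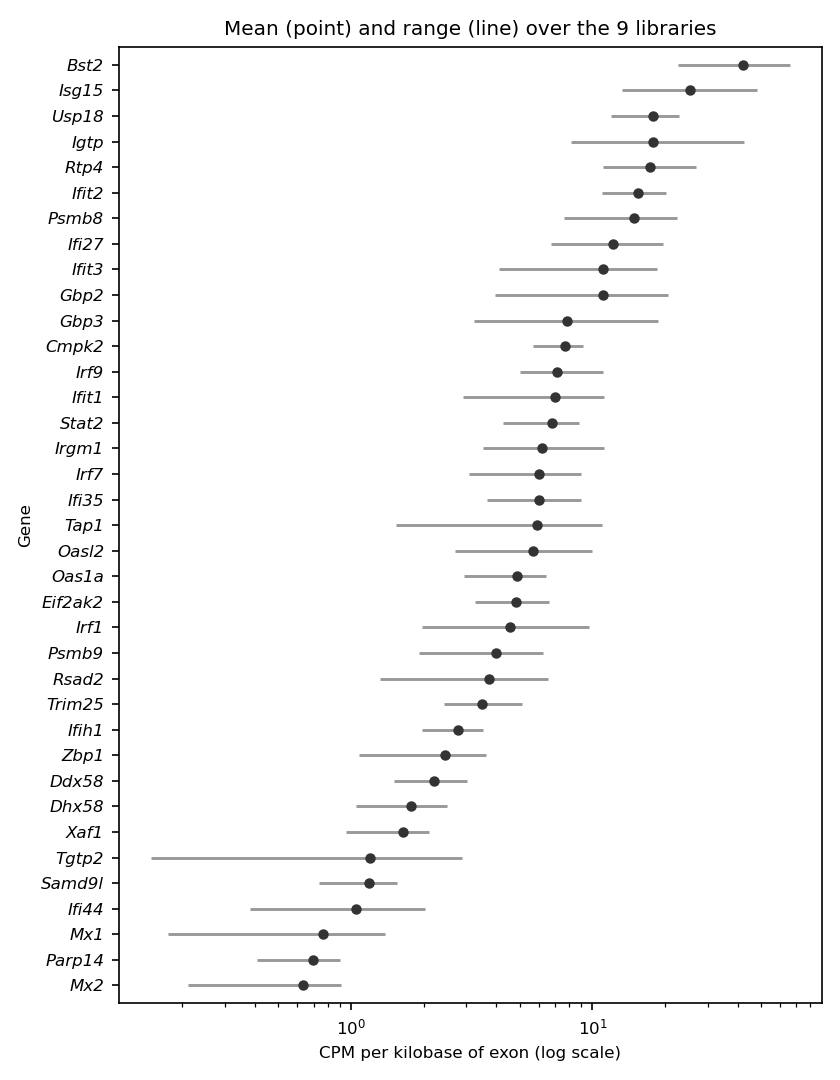
The level of each of the 37 genes, in CPM per kilobase of exon on a log axis. Points are the mean of the 9 libraries and lines run from the lowest to the highest library; Bst2 leads at 42.1 and Mx2 is last at 0.636.

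Bst2 had 36.3, 20.4 and 36.3 CPM in sh-Gpc4 libraries 1, 3 and 4, 34.1, 59.4 and 52.4 CPM in sh-Gpc2 libraries 1, 2 and 4, and 27.6, 49.3 and 26.7 CPM in sh-NT libraries 1, 2 and 4. Its highest value was in sh-Gpc2 library 2 and its lowest in sh-Gpc4 library 3. Isg15 had 20.3, 9.99 and 17.0 CPM in sh-Gpc4, 14.2, 36.4 and 24.4 CPM in sh-Gpc2, and 13.5, 27.2 and 10.0 CPM in sh-NT libraries. Usp18 had 56.9, 51.1 and 54.1 CPM in sh-Gpc4, 36.8, 63.8 and 52.5 CPM in sh-Gpc2, and 40.2, 59.2 and 33.3 CPM in sh-NT libraries. For both genes of the ISG15 system the top library was sh-Gpc2 library 2, and library 2 was also the highest of sh-NT. Rtp4 had 35.9, 28.8 and 38.3 CPM in sh-Gpc4, 23.6, 57.3 and 47.4 CPM in sh-Gpc2, and 26.6, 47.3 and 26.4 CPM in sh-NT libraries, the same order of libraries within sh-Gpc2 and with library 2 on top within sh-NT.

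The level of these genes differed widely between libraries of the same group. The summed level of the 37 genes was 843, 600.2 and 896 CPM in sh-Gpc4 libraries 1, 3 and 4, 726, 1172 and 1044 CPM in sh-Gpc2 libraries 1, 2 and 4, and 589, 1005 and 669.7 CPM in sh-NT libraries 1, 2 and 4. Each group held low and high libraries, and all 3 groups overlapped. Of the 37 genes, 19 (51.4%) were highest in sh-Gpc2 library 2, where 14.7% of all tested genes were highest. In sh-Gpc4 library 3, 17 of the 37 (45.9%) were lowest, against 22.6% of all tested genes. The SD within groups had a median of 0.48 log2 CPM over the 37 genes, from 0.21 for Cmpk2 to 1.07 for Tgtp2, against 0.20 over the 11545 tested genes within the same range of levels. Within sh-NT alone the medians were 0.49 for the 37 genes and 0.13 for those 11545 genes, so libraries with the same scrambled hairpin differed in interferon response genes more than in most genes of that range.

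**Figure D2:**
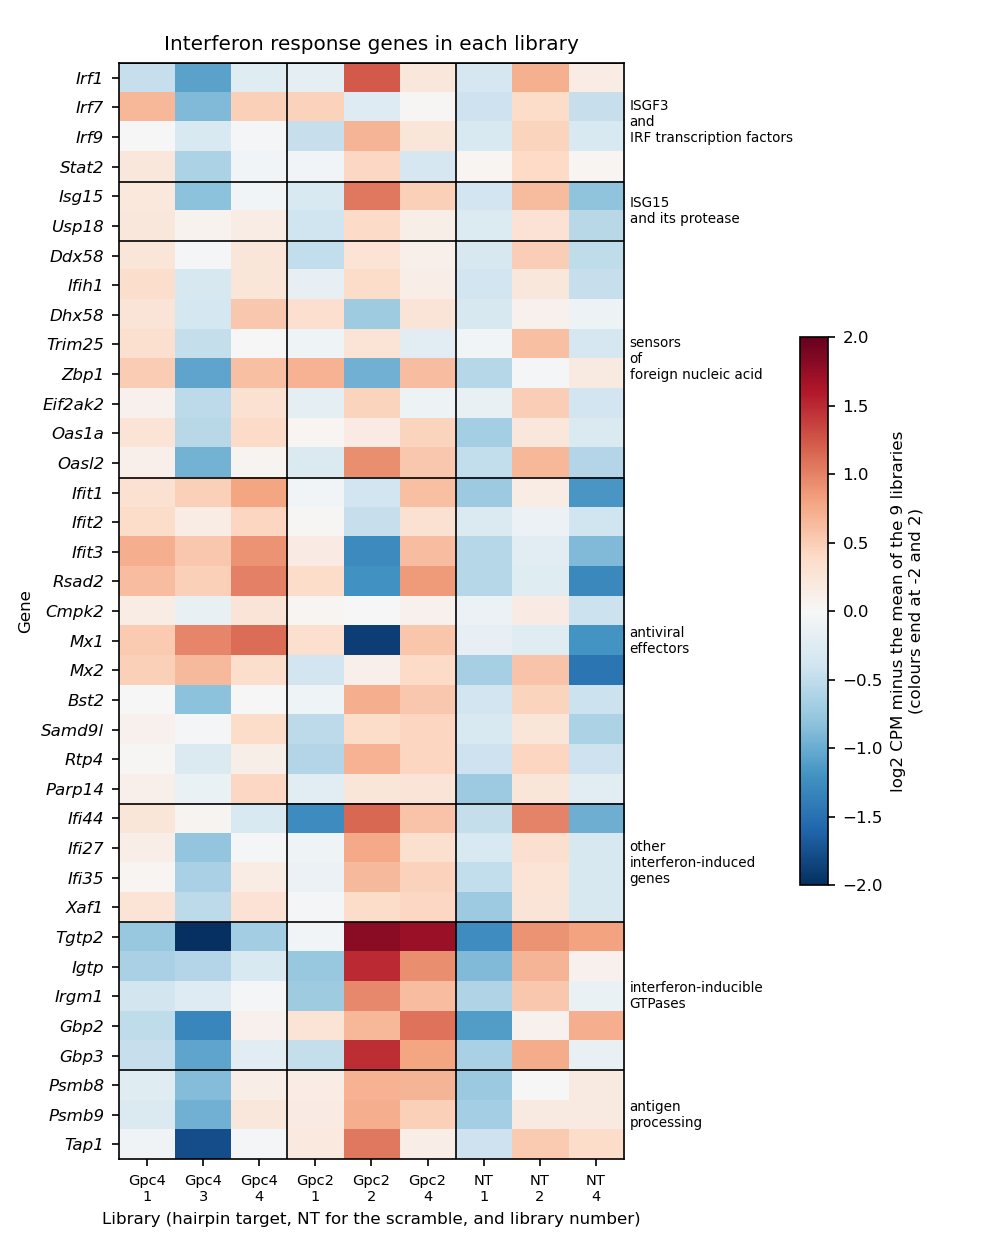
Log2 CPM of the 37 genes in the 9 libraries, minus the mean of the 9 libraries, grouped by role; colours end at -2 and 2. In most rows sh-Gpc2 libraries 2 and 4 and sh-NT library 2 are high. Library 3 of sh-Gpc4 is lowest in 17 rows, while Ifit3, Rsad2 and Mx1 are high in the sh-Gpc4 libraries.

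Against sh-NT, no interferon response gene passed the test in sh-Gpc4 libraries. Of the 37, 0 had an adjusted p under 0.05 by edgeR, as for all tested genes (0.00%), and DESeq2 and limma voom called 0 of the 37 as well. With limma voom, which weights samples, the smallest adjusted p of the 37 was 0.0531, reached by Ifit1, Ifit2, Ifit3 and Rsad2, with 7 higher and 0 lower at an unadjusted p under 0.05 and a median log2 fold change of 0.24. At an unadjusted p under 0.05, 5 were higher (13.5%, against 3.56% of all tested genes) and 1 was lower (2.70%, against 6.01%). The median log2 fold change was 0.03 over the 37 genes and 0.02 over all genes, with 19 of 37 above 0 (51.4%, against 52.8% of all genes). The 5 higher genes were antiviral effectors, and the lower one was a GTPase. These counts moved with single libraries: 11 genes were higher at that p without sh-NT library 2, 2 without sh-NT library 4, and 3 without sh-Gpc4 library 4. Lower at that p were 3 without sh-NT library 1, and 0 without sh-NT library 2 or 4 or any of the sh-Gpc4 libraries.

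Among the 11 antiviral effectors, 10 had a log2 fold change above 0 in sh-Gpc4 against sh-NT, with a median of 0.58, and 5 had all sh-Gpc4 libraries above all sh-NT libraries. That separation was seen in 10.8% of all tested genes in this direction, and in 13.5% of the 37. In none of the 37 did all sh-Gpc4 libraries lie below all sh-NT libraries, which 13.2% of all tested genes did. Ifit3, whose protein works in a complex with IFIT1 on foreign RNA, had 28.5, 25.0 and 32.2 CPM in sh-Gpc4 libraries 1, 3 and 4, against 11.6, 14.6 and 9.29 CPM in sh-NT libraries 1, 2 and 4. The log2 fold change was 1.27 ± 0.39 (SE; 95% interval 0.40 to 2.14; 2.41-fold; edgeR adjusted p = 0.488). Rsad2, or viperin, which makes a chain-terminating nucleotide, had 21.5, 19.5 and 28.3 CPM in sh-Gpc4, against 9.41, 11.8 and 5.71 CPM in sh-NT libraries. Its log2 fold change was 1.36 ± 0.45 (SE; 95% interval 0.35 to 2.38; edgeR adjusted p = 0.488). In both genes the lowest sh-Gpc4 library stood well above the highest sh-NT library.

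Ifit1, which binds RNA with a foreign cap, had 21.2, 24.04 and 29.6 CPM in sh-Gpc4 libraries, against 10.4, 19.0 and 7.70 CPM in sh-NT libraries (log2 fold change 1.01 ± 0.34, SE; edgeR adjusted p = 0.488). Ifit2, of the same family and an inducer of cell death in other settings, had 75.9, 65.2 and 79.4 CPM in sh-Gpc4, against 48.1, 54.5 and 44.7 CPM in sh-NT libraries (0.58 ± 0.18, SE; edgeR adjusted p = 0.488). Mx1, a dynamin-like GTPase that blocks influenza virus in the nucleus of mouse cells, had 3.48, 4.75 and 5.26 CPM in sh-Gpc4, against 2.16, 2.06 and 1.06 CPM in sh-NT libraries (1.35 ± 0.51, SE; edgeR adjusted p = 0.488). The groups did not overlap in any of the 3, and the gap was narrowest for Ifit1, where sh-NT library 2 came close to sh-Gpc4 library 1. The exact two-sided permutation test gave p = 0.1 for each of the 5 genes, the smallest that 3 against 3 libraries allow. Any gene whose groups do not overlap gets this value, so it adds nothing to the separation. The 3 IFIT genes lie in a cluster on chromosome 19 (GRCm38; Ifit2 at 34550694 to 34576419, Ifit3 at 34583531 to 34588731 and Ifit1 at 34640871 to 34650009, plus strand). Ifit3 has a close copy, Ifit3b, and reads of the pair may have been split between them; Ifit3b had 9.33, 7.27 and 9.68 CPM in sh-Gpc4, against 3.22, 4.86 and 1.72 CPM in sh-NT libraries. Rsad2 (chromosome 12, 26442746 to 26456452, minus strand) lies beside Cmpk2, a mitochondrial nucleotide kinase, whose log2 fold change was 0.20 ± 0.16 (SE).

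Of the remaining effectors, Mx2 had a log2 fold change of 0.78, Samd9l 0.34, Parp14 0.32, Rtp4 0.04 and Bst2 -0.15 in sh-Gpc4 against sh-NT. The 8 sensors ran from -0.17 for Oasl2 to 0.30 for Dhx58, with 5 above 0; Ddx58, which encodes RIG-I, had 0.20, Ifih1, which encodes MDA5, 0.29, and Eif2ak2, the kinase PKR that halts translation on double-stranded RNA, -0.04. Of the transcription factors, Irf7, which amplifies the type I response, had 0.34, Irf9 -0.10, Stat2 -0.28 and Irf1 -0.79. Isg15 had -0.10 and Usp18 0.29. None of these had an unadjusted edgeR p under 0.05, and in each of them the libraries of the groups overlapped.

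The GTPases and antigen processing genes lay on the other side of 0. All 5 GTPases and all 3 antigen processing genes had a log2 fold change below 0 in sh-Gpc4 against sh-NT, with medians of -0.61 and -0.21, and in none of the 8 were the groups apart. Tgtp2, a GTPase directed at the vacuoles of intracellular parasites, had 1.42, 0.435 and 1.49 CPM in sh-Gpc4 libraries 1, 3 and 4, against 1.01, 4.47 and 4.21 CPM in sh-NT libraries 1, 2 and 4. The log2 fold change was -1.54 ± 0.67 (SE; 95% interval -3.05 to -0.04; edgeR adjusted p = 0.488), and sh-NT library 1 was below 2 of the sh-Gpc4 libraries. Tgtp2 has a near-identical copy, Tgtp1, and its counts may hold reads of both or lack shared ones. Igtp had 19.3, 20.2 and 24.5 CPM in sh-Gpc4, against 16.4, 48.8 and 32.3 CPM in sh-NT libraries, so that the scrambled libraries lay on both sides.

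**Figure D3:**
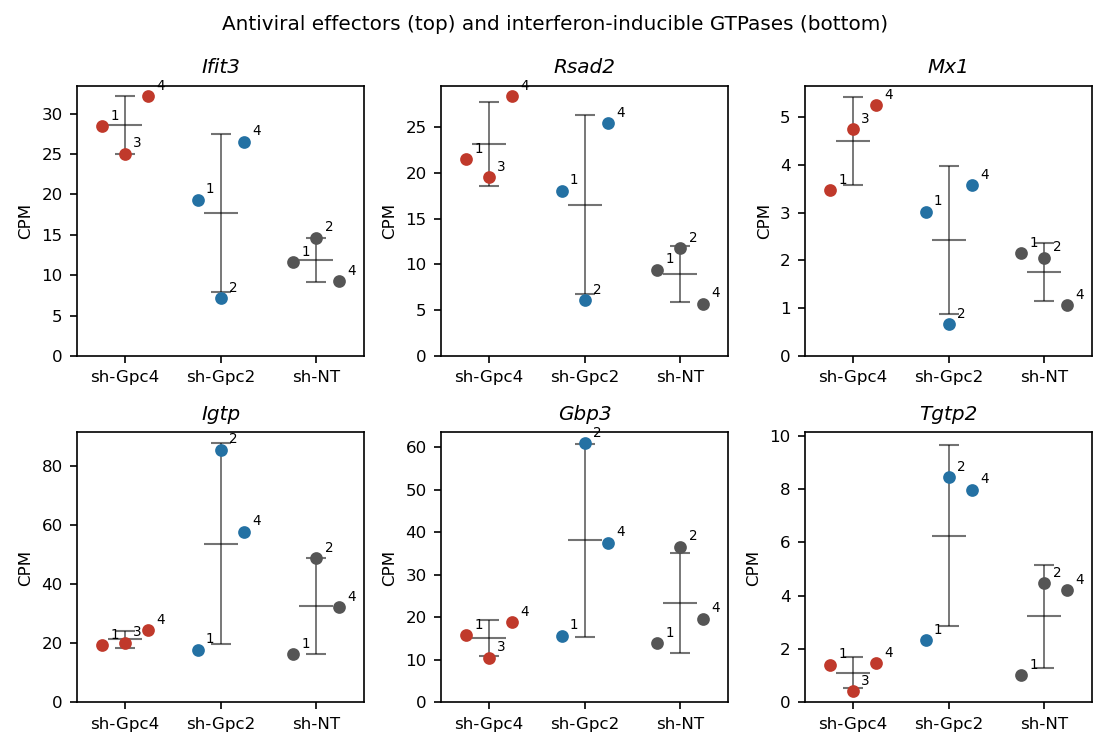
CPM of antiviral effectors (top row) and GTPases (bottom row) in each library (numbered points), with the mean of each group as a line and the SD of its 3 libraries as an error bar, for sh-Gpc4, sh-Gpc2 and sh-NT. Ifit3 runs from 25.0 to 32.2 CPM in sh-Gpc4 and from 9.29 to 14.6 CPM in sh-NT, while Igtp spreads from 17.9 to 85.5 CPM within sh-Gpc2.

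In sh-Gpc2 libraries the interferon response genes sat mostly above sh-NT by small amounts that overlapped. Of the 37 genes, 0 passed an adjusted p of 0.05 by edgeR (0.00% of all tested genes passed), DESeq2 or limma voom. The log2 fold change was above 0 for 35 of the 37 (94.6%, against 50.7% of all genes), with a median of 0.39 against 0.00. The 2 below 0 were Stat2 (-0.13) and Trim25 (-0.12), a ubiquitin ligase that works with RIG-I. Yet in 0 of the 37 were all sh-Gpc2 libraries above all sh-NT libraries, a separation that 3.59% of all tested genes showed, and in 0 were all below (4.11% of all genes). At an unadjusted p under 0.05 only 1 was higher (2.70%, against 1.62% of all genes) and 0 were lower (0.947% of all genes). This contrast shares the sh-NT libraries with the first. The count at that p was 10 without sh-NT library 2, 7 without sh-Gpc2 library 1, 4 without sh-Gpc2 library 2, 2 without sh-NT library 4, and 0 without sh-Gpc2 library 4, sh-NT library 1 or sh-Gpc4 library 1.

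The gene that reached it was Psmb8, a subunit of the immunoproteasome, which cuts proteins into peptides for display. Psmb8 had 52.5, 75.9 and 75.2 CPM in sh-Gpc2 libraries 1, 2 and 4, against 28.1, 47.4 and 53.5 CPM in sh-NT libraries 1, 2 and 4, with sh-NT library 4 just above the lowest sh-Gpc2 library. The log2 fold change was 0.66 ± 0.29 (SE; 95% interval 0.00 to 1.32; edgeR adjusted p = 0.968). Psmb9, another immunoproteasome subunit, had 15.4, 22.8 and 19.0 CPM in sh-Gpc2, against 8.56, 15.6 and 15.5 CPM in sh-NT libraries (0.53 ± 0.32, SE). Its exons overlap those of Tap1, the peptide transporter, on the opposite strand, so some reads may not have been assigned to either. Rsad2 had 18.0, 6.07 and 25.4 CPM in sh-Gpc2 libraries 1, 2 and 4, against 9.41, 11.8 and 5.71 CPM in sh-NT libraries, with sh-Gpc2 library 2 at the level of the controls (0.88 ± 0.45, SE; 0.42 without sh-Gpc2 library 4). Ifit1 had 16.49, 13.2 and 26.1 CPM in sh-Gpc2, against 10.4, 19.0 and 7.70 CPM in sh-NT libraries (0.59 ± 0.34, SE; 0.26 without sh-Gpc2 library 4, 0.33 without sh-NT library 4 and 1.04 without sh-NT library 2). Ifi35 had 9.18, 15.6 and 13.6 CPM in sh-Gpc2, against 7.08, 11.97 and 7.96 CPM in sh-NT libraries (0.51 ± 0.28, SE). Xaf1, known as a partner of the apoptosis inhibitor XIAP, had 7.27, 9.54 and 9.91 CPM in sh-Gpc2, against 4.47, 8.84 and 5.91 CPM in sh-NT libraries (0.47 ± 0.29, SE). Without sh-NT library 1 the log2 fold changes were 0.43 for Psmb8, 0.29 for Psmb9 and 0.27 for Xaf1, and without sh-NT library 2 they were 0.77 for Ifi35 and 0.78 for Xaf1. In Psmb9, Rsad2, Ifit1, Ifi35 and Xaf1, sh-NT library 2 reached into the range of sh-Gpc2.

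By role, the median log2 fold changes of sh-Gpc2 against sh-NT were 0.70 for the GTPases, 0.53 for antigen processing, 0.45 for the other interferon-induced genes, 0.39 for Isg15 and Usp18, 0.35 for the effectors, 0.23 for the transcription factors and 0.22 for the sensors. Within sh-Gpc2 the libraries disagreed by more than these medians. Igtp had 17.9 CPM in library 1 and 85.5 CPM in library 2, a ratio of 4.78, and the ratio was 3.88 for Gbp3, 3.63 for Tgtp2 and 3.16 for Irgm1. Over the same pair of libraries Ifit3 had 19.4 and 7.13 CPM, a ratio of 0.369, Rsad2 a ratio of 0.336 and Mx1 one of 0.219. Thus sh-Gpc2 library 2 held the highest level of 19 of the 37 genes and at the same time the lowest of Ifit2, Ifit3, Mx1 and Dhx58. Within sh-NT, library 2 over library 1 gave 2.97 for Igtp and 4.41 for Tgtp2, and 1.26 for Ifit3.

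Set directly against sh-Gpc2, all GTPases and antigen processing genes had log2 fold changes below 0 in sh-Gpc4, and most effectors were above 0. Of the 37 genes, 0 passed an adjusted p of 0.05 by edgeR (0.00% of all tested genes passed), DESeq2 or limma voom. At an unadjusted p under 0.05, 7 were lower (18.9%, against 1.80% of all tested genes) and 0 were higher (1.09% of all genes). In 5 genes (13.5%, against 2.0% of all genes) all sh-Gpc4 libraries lay below all sh-Gpc2 libraries: Tgtp2, Irf1, Gbp2, Psmb8 and Tap1. In 0 of the 37 did all lie above (3.5% of all genes). The median log2 fold change was -0.15 over the 37 genes and -0.00 over all genes, with 13 of 37 above 0 (35.1%, against 49.5% of all genes). Single libraries moved these counts: 1 gene was lower at that p without sh-Gpc4 library 3, 1 without sh-Gpc2 library 2 and 13 without sh-Gpc2 library 1. Without sh-Gpc2 library 4 there were 3 higher and 4 lower, and limma voom with sample weights gave 4 higher and 1 lower. The number above 0 was 20 without sh-Gpc4 library 3 and 8 without sh-Gpc4 library 4. The sh-Gpc4 and sh-Gpc2 libraries of this contrast also enter the contrasts against sh-NT, so the 3 sets of values are not independent.

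Tgtp2 showed the widest gap, with 1.42, 0.435 and 1.49 CPM in sh-Gpc4 libraries 1, 3 and 4, against 2.33, 8.46 and 7.98 CPM in sh-Gpc2 libraries 1, 2 and 4. The log2 fold change was -2.49 ± 0.68 (SE; 95% interval -4.02 to -0.97; edgeR adjusted p = 0.966). Irf1, the transcription factor that follows type II interferon, had 11.9, 7.81 and 13.8 CPM in sh-Gpc4, against 14.2, 38.5 and 19.1 CPM in sh-Gpc2 libraries, where sh-Gpc2 library 1 was barely above sh-Gpc4 library 4. Its log2 fold change was -1.10 ± 0.39 (SE; edgeR adjusted p = 0.966), and -0.58 without sh-Gpc2 library 2. Psmb8 had 39.9, 25.8 and 51.8 CPM in sh-Gpc4, against 52.5, 75.9 and 75.2 CPM in sh-Gpc2 libraries (-0.79 ± 0.29, SE; edgeR adjusted p = 0.966). Gbp2, a guanylate-binding protein that attacks pathogen vacuoles, had 17.2, 9.90 and 25.8 CPM in sh-Gpc4, against 29.5, 38.7 and 51.9 CPM in sh-Gpc2 libraries (-1.18 ± 0.46, SE; edgeR adjusted p = 0.966). For Tap1 the values were 27.5, 8.44 and 28.2 CPM in sh-Gpc4, against 33.0, 60.1 and 31.7 CPM in sh-Gpc2 libraries (-0.96 ± 0.45, SE). The exact two-sided permutation p was 0.1 for each of these 5 genes, the smallest possible. Groups that do not overlap always give this value, so it adds nothing to the separation.

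Igtp and Gbp3 overlapped between the hairpins. Igtp, a GTPase of the IRG family, had 19.3, 20.2 and 24.5 CPM in sh-Gpc4, against 17.9, 85.5 and 57.8 CPM in sh-Gpc2 libraries (-1.33 ± 0.52, SE; edgeR adjusted p = 0.966; -0.83 without sh-Gpc2 library 2). Gbp3 had 15.9, 10.5 and 18.9 CPM in sh-Gpc4, against 15.7, 61.0 and 37.6 CPM in sh-Gpc2 libraries (-1.34 ± 0.49, SE; edgeR adjusted p = 0.966; -0.82 without sh-Gpc2 library 2). For Igtp, sh-Gpc2 library 1 lay below all sh-Gpc4 libraries, and for Gbp3 it lay within their range. All 5 GTPases, all 3 antigen processing genes and all 4 other interferon-induced genes had log2 fold changes below 0, with medians of -1.33, -0.79 and -0.46. Among the 11 effectors 9 were above 0, with a median of 0.32; Mx1 had 0.90 ± 0.51 and Ifit3 0.69 ± 0.38 (SE), and the libraries overlapped in both.

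**Figure D4:**
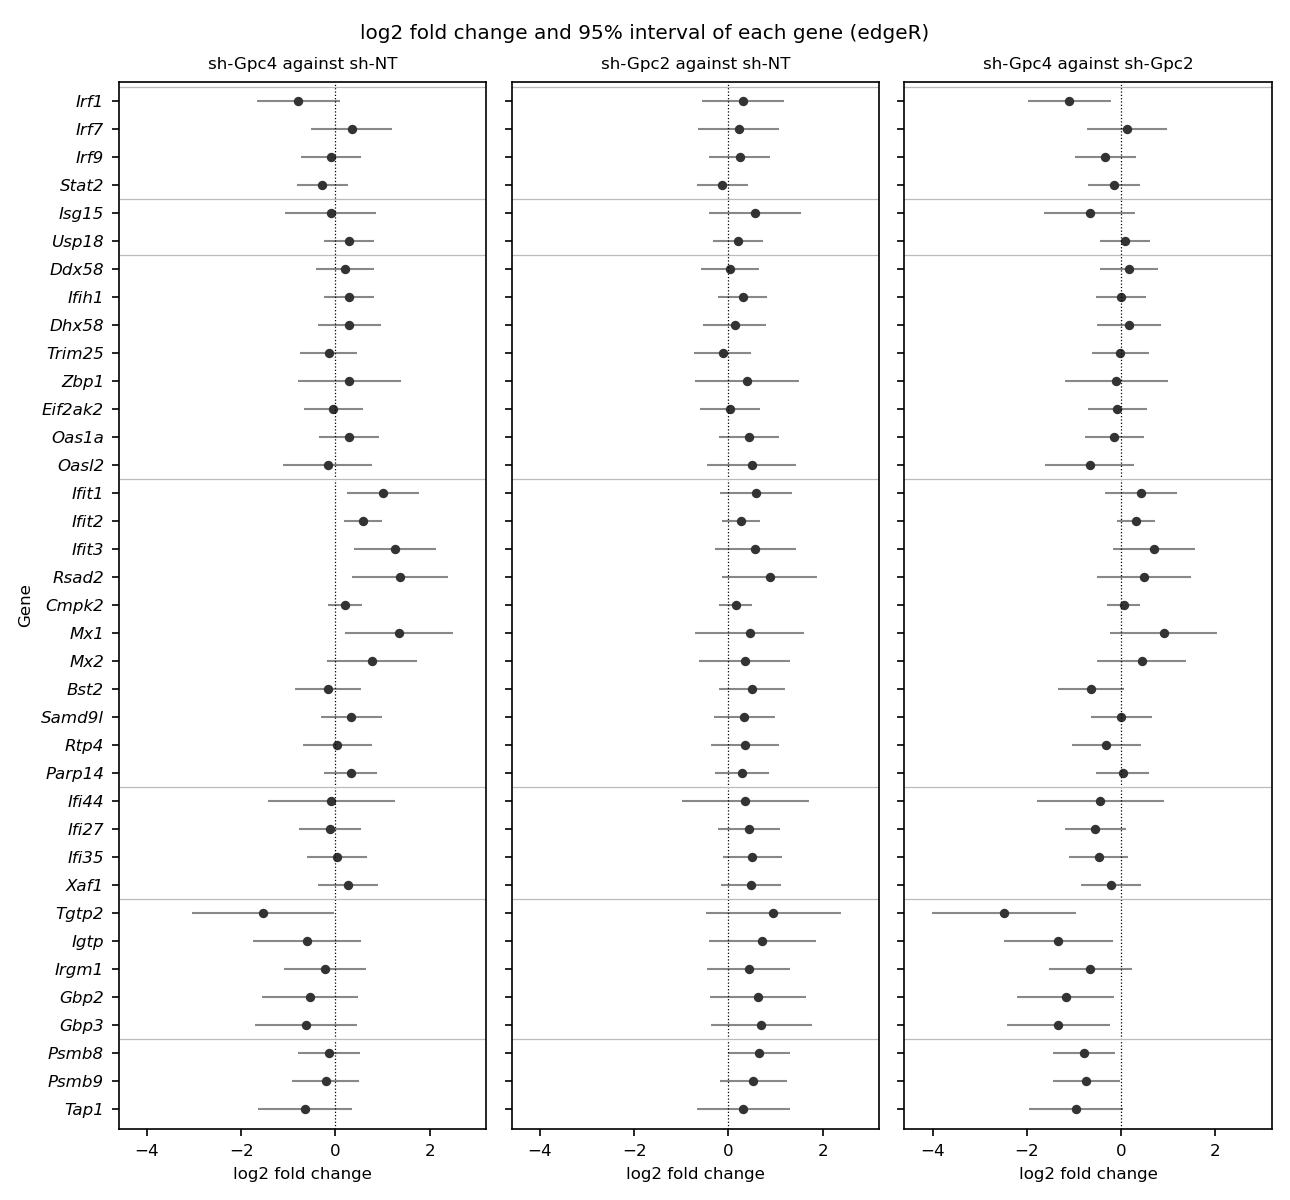
Log2 fold change of each of the 37 genes with its 95% interval from edgeR, in the order of roles: sh-Gpc4 over sh-NT (left), sh-Gpc2 over sh-NT (middle) and sh-Gpc4 over sh-Gpc2 (right). Rsad2 has 1.36 and Tgtp2 -1.54 in the first contrast, 35 of 37 points lie above 0 in the second, and Tgtp2 has -2.49 in the third.

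The signals above these genes were sparse. Of 11 interferon genes looked up, Ifnb1 alone passed the filter on low counts. Ifnb1, the type I interferon that most cells can make, had 1.58, 0.330 and 0.545 CPM in sh-Gpc4 libraries 1, 3 and 4, 0.565, 0.0807 and 0.448 CPM in sh-Gpc2 libraries 1, 2 and 4, and 0.467, 0.608 and 0.0354 CPM in sh-NT libraries 1, 2 and 4. The highest of these values came from 79 reads and the lowest from 2, and every group overlapped the others. Its log2 fold change was 1.09 ± 0.83 (SE, edgeR adjusted p = 0.554) in sh-Gpc4 and -0.05 ± 0.89 (SE, edgeR adjusted p = 0.997) in sh-Gpc2 against sh-NT. Of the other interferon genes none had more than 9 reads in a library, and Ifng, the type II interferon, had 1 read in all 9 libraries together.

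Genes of the receptors and their kinases were detected in every group, and none passed the test. Ifnar1 had 117, 91.9 and 119 CPM in sh-Gpc4, 122, 118 and 94.6 CPM in sh-Gpc2, and 112, 116 and 108 CPM in sh-NT libraries. Of the 10 receptor, kinase and STAT genes that were tested of 11, 0 had an unadjusted edgeR p under 0.05 against sh-NT for either hairpin, with medians of 0.05 for sh-Gpc4 and 0.08 for sh-Gpc2. Ifngr1, a chain of the type II receptor, had 49.3, 69.7 and 79.8 CPM in sh-Gpc4, 51.7, 24.6 and 70.5 CPM in sh-Gpc2, and 38.7, 38.0 and 57.3 CPM in sh-NT libraries, with its lowest value in sh-Gpc2 library 2. Of the receptor-bound kinases, Tyk2 had log2 fold changes against sh-NT of -0.62 in sh-Gpc4 and -0.35 in sh-Gpc2, and Jak2 had 0.25 in sh-Gpc4 and 0.14 in sh-Gpc2. For Stat3 they were -0.25 in sh-Gpc4 and 0.39 in sh-Gpc2.

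Of 15 adaptors and kinases that lead from sensing to interferon, 1 of the 15 was higher at an unadjusted p under 0.05 in sh-Gpc4 against sh-NT (3.56% of all tested genes were), and 0 were lower (6.01% of all genes). Neither direction held any in sh-Gpc2. The higher gene was Tlr3, the endosomal receptor for double-stranded RNA, with 6.23, 5.88 and 7.51 CPM in sh-Gpc4, 4.31, 4.18 and 6.69 CPM in sh-Gpc2, and 3.49, 5.10 and 3.73 CPM in sh-NT libraries. All sh-Gpc4 libraries were above all sh-NT libraries (log2 fold change 0.67 ± 0.23, SE; edgeR adjusted p = 0.488). Tbk1, the kinase that activates IRF3, had 0.27 ± 0.15 (SE), Traf3 -0.53 ± 0.30 (SE), Traf6 -0.09 ± 0.08 (SE) and Unc93b1, the chaperone of endosomal Toll-like receptors, 0.26 ± 0.40 (SE) in sh-Gpc4 against sh-NT. In sh-Gpc2 against sh-NT the values were 0.06 for Tbk1, -0.25 for Traf3, -0.15 for Traf6 and 0.09 for Unc93b1.

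Among 14 genes that restrain the response, 2 of the 14 were lower at an unadjusted p under 0.05 in sh-Gpc4 against sh-NT (6.01% of all tested genes were), and 0 in sh-Gpc2 (0.947% of all genes). Nlrx1, a mitochondrial brake on RNA sensing, had 5.73, 2.13 and 4.54 CPM in sh-Gpc4 libraries, against 7.29, 8.61 and 7.89 CPM in sh-NT libraries, with no overlap (-0.94 ± 0.33, SE; edgeR adjusted p = 0.488). Tnfaip3, the ubiquitin-editing enzyme A20, had 18.5, 9.69 and 11.8 CPM in sh-Gpc4, against 22.1, 26.8 and 17.2 CPM in sh-NT libraries (-0.73 ± 0.29, SE; edgeR adjusted p = 0.488). Socs3, a feedback inhibitor of cytokine receptors, had -0.93 ± 0.45 and Adar, which edits double-stranded RNA, -0.64 ± 0.33 (SE). Rnaseh2a and Rnaseh2b, subunits of the enzyme that removes RNA from DNA, had 0.11 and 0.05. In sh-Gpc4 library 3, which stands apart on the first component, Nlrx1, Tnfaip3, Socs3 and Adar each had their lowest value of all 9 libraries.

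A further 50 interferon-stimulated genes were tested. In sh-Gpc4 against sh-NT 31 were above 0 with a median of 0.10 (52.8% of all tested genes were above 0), and at an unadjusted p under 0.05 there were 6 higher and 1 lower (3.56% and 6.01% of all genes). In sh-Gpc2 against sh-NT 46 were above 0 with a median of 0.31 (50.7% of all genes were above 0), and 1 was higher at that p (1.62% of all genes). In sh-Gpc4 against sh-Gpc2 20 of the 50 were above 0 (49.5% of all genes), 1 was higher and 7 were lower (1.09% and 1.80% of all genes). Slfn8, of the Schlafen family, had 6.59, 6.04 and 8.70 CPM in sh-Gpc4, 4.15, 3.29 and 5.39 CPM in sh-Gpc2, and 3.33, 4.95 and 3.36 CPM in sh-NT libraries, with all sh-Gpc4 values above all others. Its log2 fold change was 0.87 ± 0.24 (SE) against sh-NT and 0.74 ± 0.24 (SE) against sh-Gpc2 (edgeR adjusted p = 0.488 and 0.966). Against sh-NT, Ifit3b had 1.42 ± 0.48, Isg20, an RNA exonuclease, 0.84 ± 0.29 and Oas1g 0.76 ± 0.27 in sh-Gpc4 (SE). B2m, the light chain of class I molecules, had 376, 300.1 and 424 CPM in sh-Gpc4, 430, 369 and 530 CPM in sh-Gpc2, and 270, 319 and 398 CPM in sh-NT libraries, and H2-D1 had 378, 177 and 363 CPM in sh-Gpc4, 471, 516 and 397 CPM in sh-Gpc2, and 294, 386 and 415 CPM in sh-NT libraries.

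Markers of cells other than progenitors and neurons also varied between libraries. The summed microglia, endothelial and mural markers each ranked the libraries in another order than the summed interferon response genes did. In bulk RNA, a different number of cells of a type and a different level per cell cannot be told apart. The summed level of 20 microglia and macrophage markers was 1830, 1909 and 2604 CPM in sh-Gpc4 libraries 1, 3 and 4, 2256, 730.2 and 2445 CPM in sh-Gpc2 libraries 1, 2 and 4, and 1302, 1377 and 2022 CPM in sh-NT libraries 1, 2 and 4. Of the 19 that were tested, 17 were above 0 in sh-Gpc4 and 15 in sh-Gpc2 against sh-NT, with medians of 0.53 in sh-Gpc4 and 0.29 in sh-Gpc2. In 5 of the 19 all sh-Gpc4 libraries lay above all sh-NT libraries, the separation that 10.8% of all tested genes showed, and in 0 did all sh-Gpc2 libraries. An unadjusted edgeR p under 0.05 was reached by 0 of 19 in either contrast. Ctss had 308, 361 and 447 CPM in sh-Gpc4, 369, 101 and 480.3 CPM in sh-Gpc2, and 191, 193 and 350.4 CPM in sh-NT libraries. C1qb was also lowest in sh-Gpc2 library 2, at 111 CPM. P2ry12, a marker of microglia, had 49.98, 59.2 and 52.5 CPM in sh-Gpc4, 25.6, 4.28 and 57.4 CPM in sh-Gpc2, and 23.4, 19.8 and 28.4 CPM in sh-NT libraries. None of the 20 was at 0 reads in every library, although Lyve1 stayed near 0.

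Ifit2, Ifit3, Mx1 and the summed microglia markers were lowest in sh-Gpc2 library 2, while Tgtp2, Igtp, Irgm1 and Gbp3 were highest there. Other genes of these roles differed. The effectors Bst2 and Rtp4 were highest in sh-Gpc2 library 2, and Ifit1 and Rsad2 were lowest in sh-NT library 4. The GTPase Gbp2 was higher in sh-Gpc2 library 4 than in sh-Gpc2 library 2. The summed level of the effectors was 274, 232 and 307 CPM in sh-Gpc4, 219, 236 and 307 CPM in sh-Gpc2, and 175, 252 and 155 CPM in sh-NT libraries. The summed level of the GTPases was 79.6, 69.1 and 103 CPM in sh-Gpc4, 85.9, 259 and 206 CPM in sh-Gpc2, and 64.6, 164 and 127 CPM in sh-NT libraries. Antigen processing genes summed to 78.7, 41.2 and 96.0 CPM in sh-Gpc4, 101, 159 and 126 CPM in sh-Gpc2, and 58.4, 104 and 106 CPM in sh-NT libraries. The part of microglia in any of these values was not tested. Endothelial markers, 14 genes of which 9 were tested, summed to 71.1 to 101 CPM in sh-Gpc4, 83.0 to 129 CPM in sh-Gpc2 and 102 to 104 CPM in sh-NT libraries, and 10 mural cell markers to between 11.97 and 17.0 CPM in sh-Gpc4, 10.4 and 23.96 CPM in sh-Gpc2 and 22.7 and 30.1 CPM in sh-NT libraries. In sh-Gpc4 against sh-NT, 3 of 9 endothelial and 3 of 9 mural markers were lower at an unadjusted edgeR p under 0.05 (6.01% of all tested genes were). In 3 endothelial and 4 mural markers all sh-Gpc4 libraries lay below all sh-NT libraries (13.2% of all genes). In sh-Gpc2 against sh-NT, 2 of 9 endothelial and 1 of 9 mural markers were lower at that p (0.947% of all genes). All sh-Gpc2 libraries lay below all sh-NT libraries in 0 endothelial and 3 mural markers (4.11% of all genes). The median log2 fold changes of endothelial and mural markers against sh-NT were -0.78 and -0.34 in sh-Gpc4, and -0.84 and -0.66 in sh-Gpc2. The part of these cells was not tested either.

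**Figure D5:**
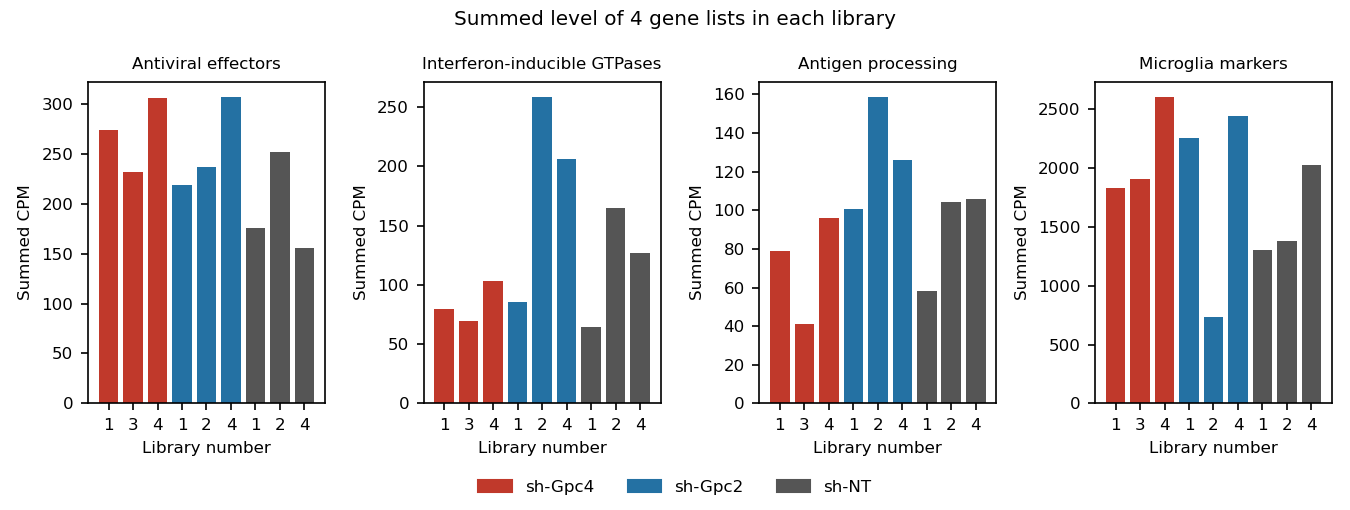
Summed CPM of 4 gene lists in each library, with library numbers on the axis and colours for sh-Gpc4, sh-Gpc2 and sh-NT. In sh-Gpc2 library 2 the GTPases reach 259 CPM and the microglia markers are at their lowest, 730.2 CPM.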

How the data were processed

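Bulk RNA-seq was analysed from 9 libraries of sorted mCherry-positive cortical cells, 3 each for sh-Gpc4, sh-Gpc2 and sh-NT. The authors deposited raw read counts per gene, counted with featureCounts of Subread on GRCm38/mm10 per the submitters' processing notes. A PicoPure kit gave the RNA and a single-cell and low-input kit the libraries, per the labels' protocols. No source used here gives the aligner, the annotation release or the use of strand. Exons of 14 of the 37 members overlap exons of another gene (Psmb9 and Tap1 overlap each other), most often on the opposite strand. How reads from the shared stretches were counted is therefore not known. GENCODE M21 gave symbols for 51486 of 78275 gene IDs (65.8%), and exon lengths.

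Counts were tested in R 4.3.3 with edgeR 4.0.16 (quasi-likelihood, TMM, default filter on low counts, 1 coefficient per group, all 9 libraries). Adjustment was Benjamini-Hochberg over the 27773 genes tested, with a threshold of 0.05. The median total degrees of freedom, residual plus those borrowed across genes, were 9.50. DESeq2 1.42.0 and limma 3.58.1 (voom) were alternatives. The SE is that of the log2 fold change. The members and gene lists were chosen with earlier results of these data known. Members given in full had the 6 smallest p-values of a contrast or the 6 highest levels per kilobase of exon; of each pathway list, up to 4 genes with the smallest p and the 2 most abundant were named, and single values of 2 list genes are not reported here. C1qb and Ctss are among the 3 most abundant microglia markers; P2ry12 and Lyve1 were chosen after their values were seen. Library numbers are those of the columns and do not match the numbers of the sample titles, so columns were tied to groups only. Same-numbered libraries did not all deviate together (correlations of -0.10 to 0.68), so the numbers were not taken as pairs. The fit was also run on simulated counts, drawn for each gene on its own. These held no shift shared by a whole library, so they do not show how the fit handles one. Depth was 48045603 to 66538437 counts per library, which makes counting error small beside the spread between libraries except for genes with few reads, such as Ifnb1.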

Additional observations from a re-analysis of the deposited data

How the results depend on the processing

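Of 350 values of 20 single results (16 genes, Gpc4 and Gpc2 included) under the alternatives, 346 kept their direction and their side of the threshold, 4 passed the threshold under the replicate block and 0 changed sign. In sh-Gpc4 against sh-NT, DESeq2 called 45 genes, 0 of them among the 37. The numbers of the columns do not establish pairs, but a fit with the number as a replicate block, which can use libraries 1 and 4 alone of each group, called 231 genes and 10 of the 37, with a median log2 fold change of 0.60 and 32 of 37 above 0. The same 4 libraries without pairing, an alternative chosen after seeing the data, called 0 genes and 0 of the 37, with a median of 0.59 and 32 above 0; both leave out sh-Gpc4 library 3 and sh-NT library 2. Of the 37, 22 were above 0 in sh-Gpc4 against sh-Gpc2 under the block, and 22 without pairing. Leaving out 1 library at a time, 0 genes and 0 of the 37 were called in any contrast. The median log2 fold change of the 37 then ran from -0.12 to 0.36 in sh-Gpc4 against sh-NT (17 to 28 above 0), from 0.22 to 0.67 in sh-Gpc2 against sh-NT (29 to 37 above 0) and from -0.33 to 0.05 in sh-Gpc4 against sh-Gpc2 (8 to 20 above 0). Without sh-Gpc4 library 3 and sh-Gpc2 library 4 together, also chosen after seeing the data, 0 of the 37 were called and the medians were 0.15, 0.28 and 0.05. Limma voom moved some single values by over 1.5 times, to -0.75 for Tgtp2 in sh-Gpc4 against sh-NT, 0.42 for Rsad2 in sh-Gpc2 against sh-NT, and -0.78 for Gbp2, -0.88 for Gbp3, -0.86 for Igtp and -0.51 for Psmb8 in sh-Gpc4 against sh-Gpc2. Causes of these shifts were not tested. With 3 libraries a group, an exact test of a single gene cannot go below p = 0.1.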
